A study of Mus musculus with 12 samples.

Results

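The genes described here encode the proteins that build, carry and edit the lipoproteins of the liver, and comprised Apob, Mttp, Tm6sf2, Apobec1, Apoa1, Apoa2, Apoa4, Apoa5, Apoc3 and Apoe. They were chosen by symbol, and all 10 were found among the 55357 genes of the count table and passed the filter on low counts. Liver RNA of male C57BL/6J mice was sequenced in 12 libraries, and each mouse was fed for 6 weeks from an age of 7 weeks to 13 weeks. WT mice (PPARa fl/fl, AlbuminCre +/+) on chow gave 4 libraries (WT chow) and on CDAHFD, a high-fat diet that lacks choline and gives its protein as L-amino acids, 3 libraries (WT CDAHFD). Hepatocyte-specific PPARα KO mice (PPARa fl/fl, AlbuminCre Tg/+) gave 2 libraries on chow (KO chow) and 3 on CDAHFD (KO CDAHFD). Both genotypes carry the floxed Ppara allele, and the Albumin promoter drives Cre in hepatocytes, so other liver cells of the KO mice keep the gene.

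Hepatocytes export triglyceride as very low density lipoprotein (VLDL), a lipid droplet built on a single apolipoprotein B molecule. The microsomal triglyceride transfer protein, encoded by Mttp, loads lipid onto apolipoprotein B as it is made, and Tm6sf2 takes part in the later filling of the particle. The smaller apolipoproteins sit on the surface of VLDL and of high density lipoprotein (HDL) and steer enzymes and receptors. PPARα is a nuclear receptor that binds DNA as a pair with RXR and switches on genes of fatty acid use. Choline is needed to make phosphatidylcholine, a lipid of the VLDL surface.

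Apobec1 encodes the enzyme that changes one cytidine of the Apob message to uridine, which turns a glutamine codon into a stop codon and gives the short form, apolipoprotein B48. The site is shown because it ties Apobec1 to Apob. It lies in exon 26 of 29 of Apob, in the coding sequence, at chr12:8008042-8008078 on the plus strand (GRCm38), with the edited base at 8008054, in codon 2179. In the following line capitals mark the edited codon and, after it, the mooring sequence, which occurs once in the transcript. Gene counts cannot show how many Apob messages were edited.
Apob editing site: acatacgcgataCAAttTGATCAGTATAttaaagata

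Apoa1, Apoc3, Apoa4 and Apoa5 belong to one cluster on chromosome 9 (GRCm38, GENCODE M21). Apoa1 lies at 46228580 to 46230466, Apoc3 at 46232933 to 46235636 on the minus strand, Apoa4 at 46240696 to 46243459 and Apoa5 at 46268633 to 46271919. The study's supplementary material lists a PPARα motif sequence for Apoa1, Apoa2, Apoa5 and Apoc3, and these are shown because they are the sites named for the receptor that was deleted. Capitals mark the stretch closest to the direct repeat that PPARα and RXR bind in its ideal form, AGGTCA given 2 times with 1 base of any kind between. The Apoa2 and Apoc3 sequences match it, on the opposite strand, at 10 of 12 letters, the Apoa1 sequence at 9 and the Apoa5 sequence at 8.
Apoa1 listed motif: caGGCTCAGAGGGCA
Apoa2 listed motif: TGATCTCTGCCCTtc
Apoa5 listed motif: aaGGGGAAAAGGTGA
Apoc3 listed motif: TGACCTTTGCCCAgc

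RefSeq windows of 250 bases before a transcription start (GRCm38.p6) were found for 8 members, in 12 windows of 32851 in all. This complete direct repeat, searched on both strands, was in none of the members' windows and in 0.0335% of all windows. The shorter AGGTCA, which is either arm of that repeat, was in 1 of the members' windows, a second window of Apoa2 that is not printed here, and in 14.02% of all windows. The HNF4-type motif CAAAGTCCA was in none of the members' windows and in 0.384% of all. The windows of Apoa2, Apoa5 and Apoa4 are printed because the first 2 hold their listed motif and the third belongs to the member with the largest change. Capitals mark the listed motif in Apoa2, from base -63 to -49 before the start, and in Apoa5, from -138 to -124. In Apoa4 they mark the first stretch with the closest match to the direct repeat, at 8 of 12 letters. A further stretch of that window reaches as many. Of all windows 74.5% reach or pass 8 letters, whereas 3.24% reach the 10 letters of Apoa2. The Apoa4 window is counted from a RefSeq start and runs past the GENCODE start at 46240696. A match is a description of letters and not of binding.
Apoa2, chr1:171224804-171225053, plus strand: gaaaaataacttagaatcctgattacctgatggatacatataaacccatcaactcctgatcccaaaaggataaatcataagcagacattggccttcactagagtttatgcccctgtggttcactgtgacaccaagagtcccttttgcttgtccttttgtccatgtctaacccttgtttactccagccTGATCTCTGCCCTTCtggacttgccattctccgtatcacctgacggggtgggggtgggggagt
Apoa5, chr9:46268358-46268607, plus strand: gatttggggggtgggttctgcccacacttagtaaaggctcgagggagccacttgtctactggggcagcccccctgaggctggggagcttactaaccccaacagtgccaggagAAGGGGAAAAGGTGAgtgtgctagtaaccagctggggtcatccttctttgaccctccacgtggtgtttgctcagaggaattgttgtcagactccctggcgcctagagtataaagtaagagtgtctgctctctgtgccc
Apoa4, chr9:46240594-46240843, plus strand: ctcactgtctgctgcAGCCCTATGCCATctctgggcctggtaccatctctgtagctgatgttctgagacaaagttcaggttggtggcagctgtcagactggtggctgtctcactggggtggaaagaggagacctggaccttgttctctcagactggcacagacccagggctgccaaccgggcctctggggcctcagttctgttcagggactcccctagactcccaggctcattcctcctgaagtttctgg

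The libraries held 29906785 to 43551003 counts, and the 10 genes together took 3.10% to 4.11% of the counts of a library. Levels are given as CPM, the read count scaled to the library size after TMM. Tests used the quasi-likelihood F statistic of edgeR, adjusted by Benjamini-Hochberg over 17358 genes, and a gene was called at an adjusted p under 0.05. Values after ± are standard errors, taken as the absolute log2 fold change divided by the square root of that F statistic. Ppara, the targeted gene, stood at 120.1, 96.2, 238 and 226 CPM in WT chow and at 14.4 and 38.6 CPM in KO chow. It stood at 59.5, 75.5 and 73.5 CPM in WT CDAHFD and at 36.3, 20.7 and 51.9 CPM in KO CDAHFD. Each KO library was below each WT library. On CDAHFD the genotypes differed in Ppara by -0.94 ± 0.42 (log2, SE), which was not called (adjusted p = 0.547).

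Summed levels of cell type markers moved with the groups. The sum of 8 hepatocyte markers ran from 80179 to 100949 CPM on chow, with KO (at most 88681) below WT (at least 89542), and from 44231 to 59739 CPM on CDAHFD. The sum of 12 macrophage markers lay between 378 and 671 CPM in the WT chow libraries, was 1352 and 1642 CPM in those of KO chow, and lay between 2122 and 2937 CPM on CDAHFD. Lyz2 (755 to 1149 CPM) and Gpnmb (558 to 796 CPM) were its largest parts on CDAHFD. Of the 12 markers, 9 were called higher and none lower in KO chow against WT chow. In WT CDAHFD 8 were called higher and 1 lower. Timd4 was at least 7.38 CPM in WT chow and at most 0.677 CPM in WT CDAHFD, so the markers did not move as one. The 8 stellate cell markers summed to 145 to 244 CPM in WT chow and to between 960 and 1672 CPM in the libraries of the other groups. The collagen genes Col3a1 (464 to 930 CPM) and Col1a1 (149 to 394 CPM) were the largest parts of that sum outside WT chow. Against WT chow, 5 of the 8 markers were called higher in KO chow and 5 in WT CDAHFD, and none lower. Acta2 was highest in WT chow replicate 1 (31.9 CPM). Alb, the largest part of the hepatocyte sum, overlapped between KO chow (55063 and 64149 CPM) and WT chow (59261 to 74115 CPM). In these bulk samples fewer hepatocytes, less RNA per hepatocyte and lower expression of the marker genes cannot be told apart. The intestine also makes apolipoproteins, and of 8 enterocyte markers Sis and Cdx2 were listed at 0 in all libraries, while Lct, Alpi and Cdx1 reached at most 0.134 CPM. The other 3 were detected, Fabp2 at 66.4 to 121 CPM, Slc5a1 at 0.871 to 15.97 CPM and Vil1 at 0.0315 to 3.11 CPM, and all 3 were called higher in KO chow and Slc5a1 and Vil1 in WT CDAHFD, both against WT chow. A clock score was the mean scaled log2 CPM of Arntl, Clock, Npas2, Cry1 and Nfil3 minus that of the rest of 16 clock genes. It was negative in WT chow replicates 3 and 4, KO chow replicate 2 and KO CDAHFD replicate 3, and positive in the other libraries. The part of time of day in the results was not tested beyond the fits given further on.

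Levels between genes were compared per kilobase of merged exons. In WT chow the highest was Apoa2 (12721 CPM per kilobase, range 10483 to 14434), whose range overlapped that of Apoe (10990.1, range 9324 to 12156). Apoa1 followed at 7526, Apoc3 at 1789, Apoa5 at 587 and Apob at 479.5 CPM per kilobase, and the ranges of Apoa5 and Apob overlapped. Mttp stood at 76.8, Apoa4 at 25.9, Tm6sf2 at 15.0 and Apobec1 at 14.3 CPM per kilobase. Tm6sf2 and Apobec1 overlapped, and the highest Apobec1 library, at 24.6, was within the range of Apoa4. In KO chow Apoa4, at 526 CPM per kilobase, stood above Apoa5 (361) and Apob (326) without overlap and below Apoc3 (1108). Apoe was then the highest, at 7322, above Apoa2 (4849) without overlap, while Apoa2 and Apoa1 (4472) overlapped.

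**Figure D1:**
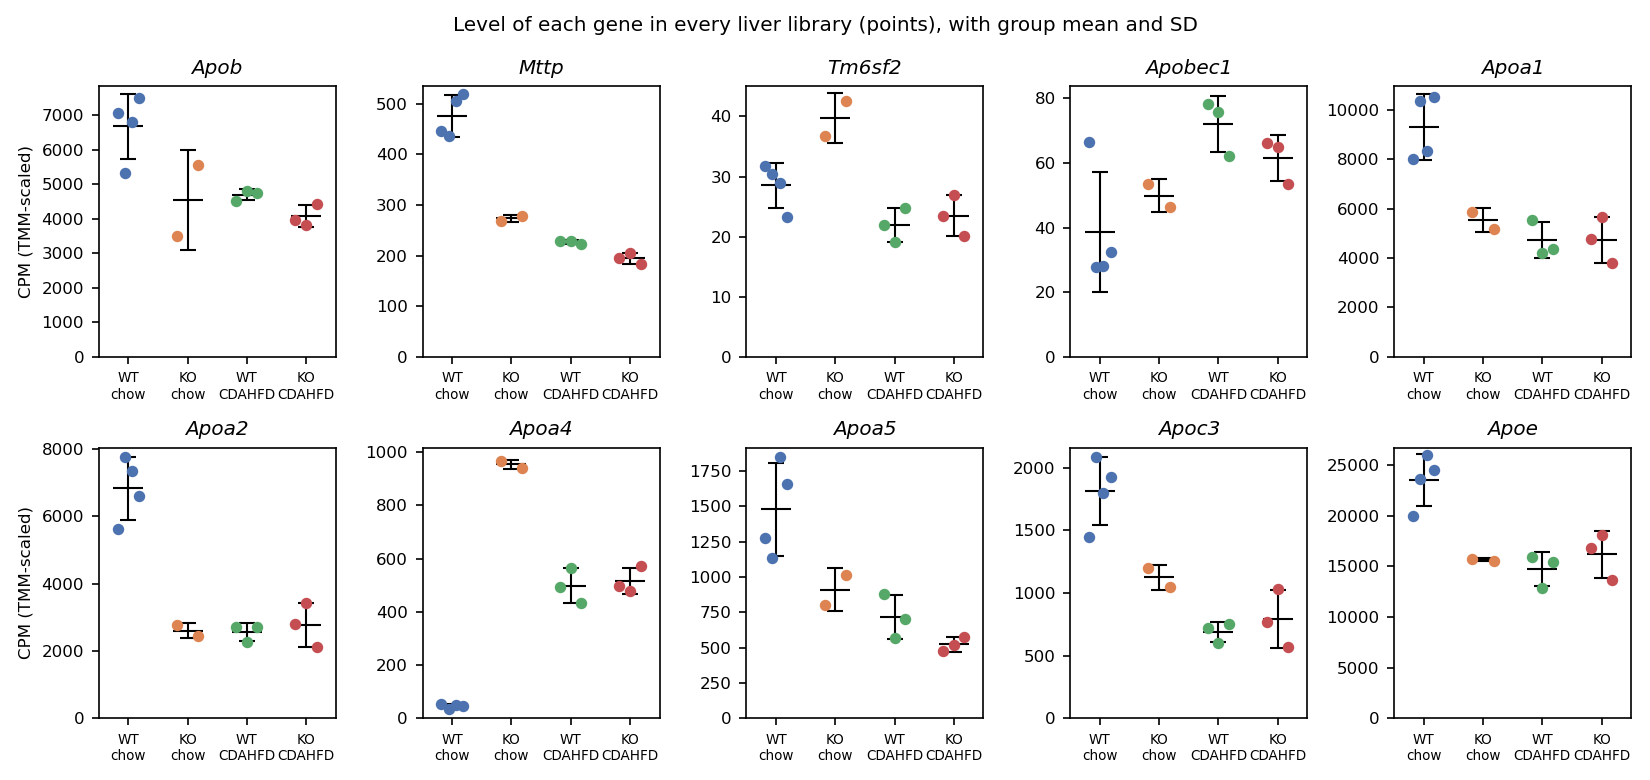
Level of the 10 genes in each liver library, in CPM on TMM-scaled library sizes on a linear axis from 0, with a bar at the mean and an error bar of 1 SD for each of the 4 groups (n = 4, 2, 3 and 3). The 4 WT chow libraries of Apoa4 lie between 36.7 and 52.0 CPM, and all other libraries lie at or above 433 CPM.

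Loss of PPARα in hepatocytes on chow was the first comparison (KO chow against WT chow). Of the 10 genes, 9 were called, 2 higher and 7 lower, where 39% of all genes tested were called, 22% higher and 17% lower. Their median log2 fold change was -0.64, and that of all genes tested was 0.00. In 8 of the 10 the libraries of the groups did not overlap, as in 50.2% of all genes. Apoa4 rose 20.3-fold, Apoa2 fell the most, and Apobec1 was not called.

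The assembly genes did not move as one. Apob stood at 7081, 5338, 6804 and 7504 CPM in WT chow and at 3511 and 5566 CPM in KO chow. The second KO library was above the lowest WT library, so the groups overlapped. Apob fell by 0.56 ± 0.19 on the log2 scale (SE, adjusted p = 0.035). This rested on single libraries: leaving out KO chow replicate 1 gave a change of -0.25 and leaving out replicate 2 one of -0.93. The call also went without WT chow replicate 1, 3 or 4, WT CDAHFD replicate 1 or KO CDAHFD replicate 1 (6 of 12 fits kept it). The deviation of genes with at least 8000 exon bases minus that of genes with at most 2000 was -0.29 on the log2 scale in KO chow replicate 1, the lowest of the 12 libraries, and 0.07 in replicate 2. Apob has 13934 exon bases, and the part of that library's length bias in its value was not tested.

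Mttp, whose product transfers triglyceride to apolipoprotein B, stood at 445, 436, 506 and 518 CPM in WT chow and at 269 and 279 CPM in KO chow. All KO libraries were below all WT libraries. Mttp fell by 0.80 ± 0.11 on the log2 scale (adjusted p = 0.000132), and stayed called in 12 of 12 fits that left out a library. Tm6sf2 stood at 31.7, 30.4, 28.9 and 23.2 CPM in WT chow and at 36.8 and 42.6 CPM in KO chow. It went the other way and rose by 0.47 ± 0.16 (log2, adjusted p = 0.0288), with no overlap. That call was lost without WT chow replicate 4 or KO chow replicate 2, where the change was 0.39 and 0.36.

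Apobec1 stood at 66.4, 27.7, 27.97 and 32.5 CPM in WT chow and at 53.5 and 46.4 CPM in KO chow. WT chow replicate 1 was above both KO libraries, and the other 3 were below them. The change of 0.37 ± 0.29 was not called (adjusted p = 0.338), and without WT chow replicate 1 it was 0.78 and called (adjusted p = 0.000694).

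Among the surface apolipoproteins, Apoa1, the main protein of HDL, stood at 8012, 10372, 8314 and 10508 CPM in WT chow and at 5865 and 5189.9 CPM in KO chow. Apoa2, the other major HDL protein, stood at 5629.6, 7751, 7333 and 6611 CPM in WT chow and at 2763 and 2445 CPM in KO chow. Neither gene had a KO library within the WT range. Apoa1 fell by 0.75 ± 0.20 (log2, adjusted p = 0.0092), a call lost without KO chow replicate 2 (-0.67). Apoa2 fell by 1.39 ± 0.21 (log2, adjusted p = 0.000182), and that call stayed in 12 of 12 such fits.

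Apoa5, whose product promotes the clearing of triglyceride by lipoprotein lipase, stood at 1280.4, 1133, 1849 and 1658 CPM in WT chow and at 804 and 1018 CPM in KO chow. Apoc3, whose product opposes that clearing, stood at 1448, 2085, 1799 and 1923 CPM in WT chow and at 1196 and 1051 CPM in KO chow. Both were lower in each KO library than in each WT library. Apoa5 fell by 0.70 ± 0.22 (log2, adjusted p = 0.0237) and Apoc3 by 0.69 ± 0.22 (adjusted p = 0.0234). The Apoa5 call was lost without WT chow replicate 3 or 4 or KO chow replicate 1, where the change was as small as -0.53. The Apoc3 call was lost without either KO chow library. So was that of Apoe, the ligand for receptors that take up remnants, which stood at 19936, 23581, 25989 and 24482 CPM in WT chow and at 15760.4 and 15549.5 CPM in KO chow. Apoe did not overlap and fell by 0.59 ± 0.17 (log2, adjusted p = 0.0177).

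Apoa4 encodes an apolipoprotein of lipid-loaded particles that is made mainly by the intestine and in mice also by the liver. It stood at 52.0, 36.7, 51.2 and 48.1 CPM in WT chow and at 966 and 942 CPM in KO chow. The 2 KO libraries were close to each other and far above WT. The rise was 4.34 ± 0.16 on the log2 scale (adjusted p = 4.7e-09) and ranged from 4.26 to 4.41 when a library was left out. The other genes of its cluster, Apoa1, Apoc3 and Apoa5, fell in the same libraries. Genes on the opposite strand share exon bases with Apoa4 in this non-directional data, and the one with counts held 0.211% as many counts as Apoa4. The summed enterocyte markers, mostly Fabp2, ranged from 67.9 to 87.9 CPM for WT chow and were 110.04 and 127 CPM for KO chow, and their part in the Apoa4 value was not tested.

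**Figure D2:**
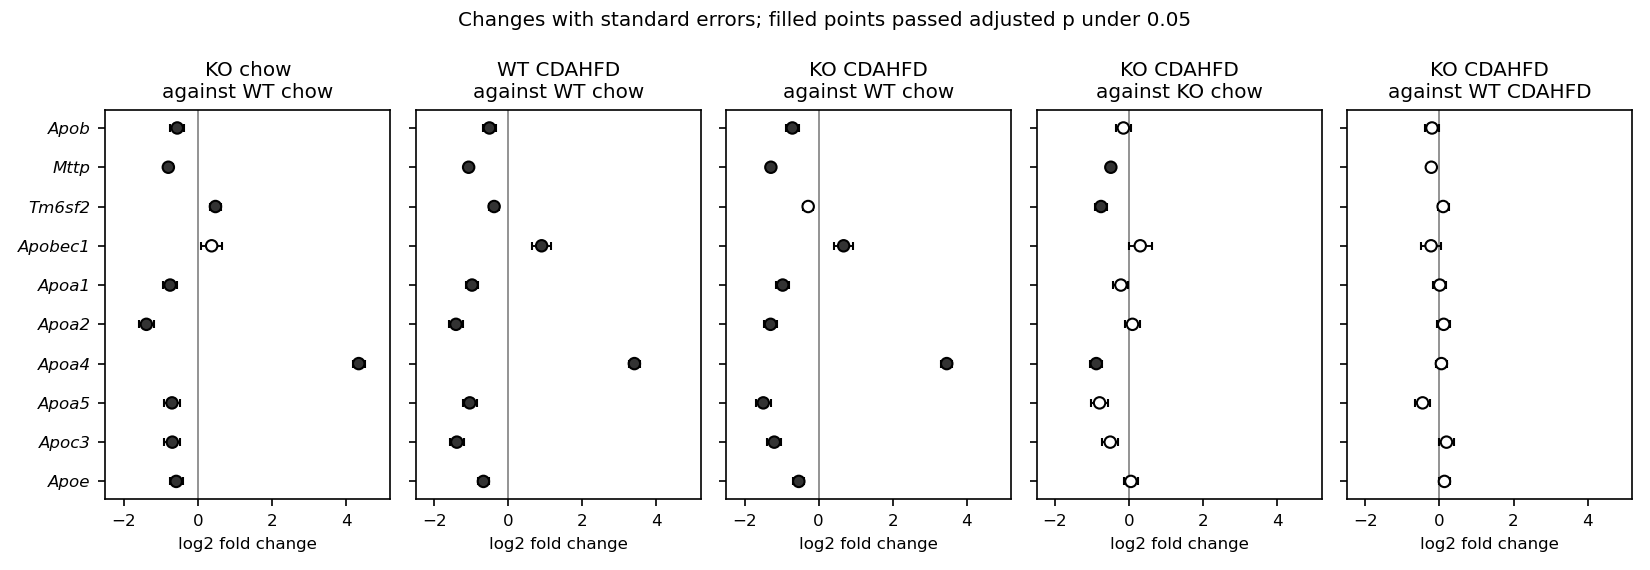
Log2 fold change of the 10 genes (rows) in 5 comparisons (panels), with the standard error as a bar, from a fit of all 12 libraries on TMM-scaled counts. Filled points passed an adjusted p under 0.05: against WT chow 9 for KO chow, 10 for WT CDAHFD and 9 for KO CDAHFD, 3 in KO CDAHFD against KO chow and 0 in KO CDAHFD against WT CDAHFD.

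The diet in WT mice was the second comparison (WT CDAHFD against WT chow). All 10 genes were called, 2 higher and 8 lower, where 51.1% of all genes tested were called, 26.1% higher and 25% lower. Their median log2 fold change was -0.83, against -0.05 over all genes tested. Libraries did not overlap in 8 of the 10, as in 55.4% of all genes. The same WT chow libraries served as control as in the KO chow comparison. Over the 8 hepatocyte markers, 7 were called lower, with a median of -1.28, and in KO chow 5 were called lower and 1 higher, with a median of -0.69.

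Apob stood at 4516, 4818 and 4749 CPM in WT CDAHFD, each below the WT chow libraries. It fell by 0.51 ± 0.17 (log2, adjusted p = 0.0218), a call lost without WT chow replicate 4 or any of the WT CDAHFD libraries (change -0.43 to -0.53 in those fits). Mttp stood at 228, 229 and 223 CPM, a narrow range below all chow libraries. It fell by 1.07 ± 0.10 (log2, adjusted p = 2.13e-06). Tm6sf2 stood at 21.9, 19.1 and 24.7 CPM, and the highest of these was above the lowest WT chow library. It fell by 0.38 ± 0.14 (log2, adjusted p = 0.0375), and 6 of 12 fits without a library kept that call. It was lost without WT chow replicate 1, 2 or 3, WT CDAHFD replicate 1 or 2 or KO CDAHFD replicate 1, with the smallest change, -0.29, without WT CDAHFD replicate 2.

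Apobec1 stood at 78.3, 75.9 and 62.0 CPM in WT CDAHFD. Replicate 3 was below WT chow replicate 1 and above the other WT chow libraries. It rose by 0.90 ± 0.26 (log2, adjusted p = 0.0107), and by 1.32 without WT chow replicate 1.

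Apoa1 stood at 5549, 4216 and 4384 CPM and Apoa2 at 2723, 2261 and 2709.5 CPM in WT CDAHFD, all below WT chow. Apoa1 fell by 0.98 ± 0.17 (log2, adjusted p = 0.000446) and Apoa2 by 1.41 ± 0.18 (adjusted p = 2.77e-05). Apoa5 stood at 883, 569 and 706 CPM. It fell by 1.04 ± 0.19 (log2, adjusted p = 0.000686), without overlap. Apoc3 stood at 719, 602 and 756 CPM, also without overlap. Its fall of 1.39 ± 0.19 (log2, adjusted p = 6.75e-05) was near that of Apoa2. Apoe stood at 15962, 12818 and 15472 CPM, below each WT chow library. It fell by 0.67 ± 0.15 (log2, adjusted p = 0.00263), the smallest fall among the surface apolipoproteins.

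Apoa4 stood at 495, 566 and 433 CPM in WT CDAHFD. It was above WT chow in each library, 10.6-fold higher (log2 change 3.41 ± 0.14, adjusted p = 7.54e-09), and each library was below both KO chow libraries.

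The estimate of these falls depends on how libraries are scaled. The TMM factors of WT chow lay between 0.729 and 0.827, those of KO chow between 1.03 and 1.04, and those of the CDAHFD groups between 1.12 and 1.26. With total counts alone, the median of all genes tested moved to a log2 value of 0.40 for KO chow and one of 0.51 for WT CDAHFD, and the values of the members moved with it. Calls over all genes became 7037 higher of 8186 for KO chow, where TMM gave 3814 of 6763, and 9092 of 10262 for WT CDAHFD, where TMM gave 4522 of 8863. Then 4 of the 10 were called in KO chow, and Apob (0.05) and Tm6sf2 (0.17) turned in direction in WT CDAHFD. The other members, Apoa4, Mttp and Apoa2 among them, kept their direction in WT CDAHFD, and no member turned in KO chow.

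**Figure D3:**
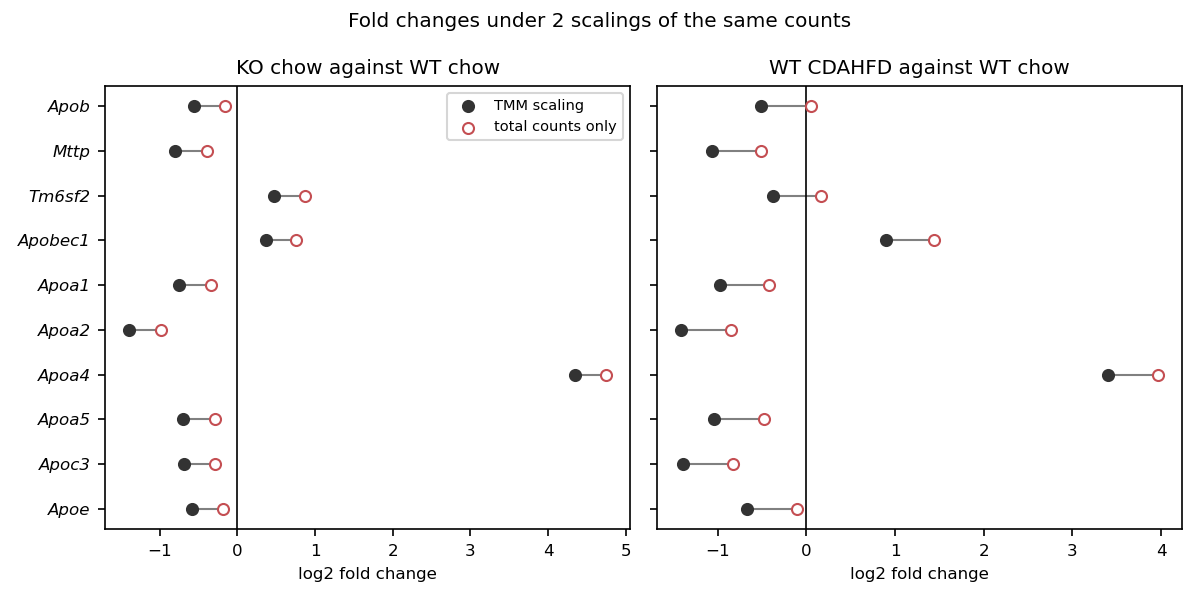
Log2 fold change of the 10 genes against WT chow in KO chow (left) and WT CDAHFD (right), with library sizes scaled by TMM (filled) or by total counts alone (open, joined by a line). Total counts alone moved each gene to the right, and took Apob from -0.51 to 0.05 and Tm6sf2 from -0.38 to 0.17 in WT CDAHFD.

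Whether the diet acted differently by genotype was the third comparison (the interaction, the log2 change of the KO effect from chow to CDAHFD). Of the 10 genes, 5 were called, 4 higher and 1 lower, where 23.1% of all genes tested were called, 8.63% higher and 14.5% lower. Apoa4 had the largest value, -4.29 ± 0.22 (adjusted p = 1.83e-07). On CDAHFD it stood at 497, 479 and 573 CPM in KO mice, which overlapped the WT range of 433 to 566 CPM. The diet thus went with a rise of 3.41 in WT and a fall of 0.89 ± 0.16 in KO mice (adjusted p = 0.00951), the latter lost without either KO chow library.

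Apoa2 (1.505 ± 0.27, adjusted p = 0.0015) and Mttp (0.58 ± 0.15, adjusted p = 0.0153) were called higher in the interaction and stayed so in 12 of 12 fits that left out a library. Apoa2 stood at 2788, 3427 and 2108 CPM in KO CDAHFD, which spans the WT CDAHFD range. Mttp stood at 196, 205 and 183 CPM in KO CDAHFD, each below the WT CDAHFD libraries. Apoc3 (0.88 ± 0.29, adjusted p = 0.0463) and Apoe (0.72 ± 0.24, adjusted p = 0.0429) were also called, in 2 and 3 of 12 such fits. Apoc3 lost its call in all fits except those without WT chow replicate 1 or KO CDAHFD replicate 3, and Apoe except those without WT chow replicate 1 or 2 or KO CDAHFD replicate 3. The other 5 members were not called, with values of 0.76 ± 0.26 for Apoa1, 0.36 ± 0.26 for Apob, 0.24 ± 0.30 for Apoa5, -0.37 ± 0.22 for Tm6sf2 and -0.60 ± 0.40 for Apobec1. Apobec1 was called without WT chow replicate 1 (-0.999).

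KO and WT mice on CDAHFD were then compared directly. None of the 10 genes was called by edgeR, where 0.357% of all genes tested were called (0.0864% higher and 0.271% lower), and 1 of them had an unadjusted p under 0.05. DESeq2 also called 0. That gene was Apoa5, which stood at 476, 519 and 579 CPM in KO CDAHFD and differed by -0.46 ± 0.20 on the log2 scale (adjusted p = 0.545). Libraries did not overlap for Apob, at 3970.4, 3831 and 4440.3 CPM in KO CDAHFD, and for Mttp, 2 of 10 genes, where 20.8% of all genes did not overlap. Apob differed by -0.20 ± 0.18 and Mttp by -0.22 ± 0.10 (log2). The remaining differences lay between -0.23 ± 0.28 for Apobec1 and 0.19 ± 0.20 for Apoc3. Differences of this size cannot be told from 0 with these standard errors.

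Within KO mice (KO CDAHFD against KO chow) 3 of the 10 genes were called, all lower, where 6.19% of all genes were called, 3.76% higher and 2.44% lower, and 6 did not overlap, as in 39.1% of all genes. Beside Apoa4, these were Mttp (-0.49 ± 0.11, adjusted p = 0.0271) and Tm6sf2 (-0.76 ± 0.17, adjusted p = 0.0207). Tm6sf2 stood at 23.4, 27.0 and 20.1 CPM in KO CDAHFD, all below both KO chow libraries. None of the 3 calls was kept without either KO chow library. Those of Mttp and Tm6sf2 were also lost without KO CDAHFD replicate 1 or 3, and that of Mttp without WT CDAHFD replicate 1. Apoa5 differed by -0.80 ± 0.22 without overlap and was not called (adjusted p = 0.0543). Its call in that comparison was present in 3 of 12 fits that left out a library, those without WT chow replicate 1, 2 or 3.

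KO mice on CDAHFD against WT mice on chow had 9 of the 10 genes called, 2 higher and 7 lower, where 52.4% of all genes were called, 26.9% higher and 25.4% lower. Libraries did not overlap in 8 of the 10, as in 51.5% of all genes. The largest fall was that of Apoa5 (-1.496 ± 0.20, adjusted p = 3.99e-05), followed by Apoa2 (-1.30 ± 0.18) and Mttp (-1.29 ± 0.10). Apoc3 stood at 769.9, 1029 and 569 CPM in KO CDAHFD and fell by 1.20 ± 0.19. Apoa1 stood at 4789, 5642 and 3794 CPM and fell by 0.97 ± 0.17. Apob fell by 0.71 ± 0.17, and Apoe, at 16820.1, 18139.9 and 13612 CPM, by 0.54 ± 0.15. Apoa4 rose by 3.46 ± 0.14. Apobec1, at 66.3, 64.9 and 53.5 CPM, rose by 0.67 ± 0.26 (adjusted p = 0.0427), a call that 3 of 12 fits without a library kept, those without WT chow replicate 1, KO chow replicate 1 or KO CDAHFD replicate 3. Tm6sf2 was not called (-0.28 ± 0.14, adjusted p = 0.11). With total counts alone Apoe (0.07) and Tm6sf2 (0.31) turned in direction.

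Without the 4 libraries whose clock score had the other sign, 4 of the 10 genes were called in KO chow against WT chow, namely Apoa2, Apoa4, Apob and Mttp, and all 10 kept their direction. In that fit 9 were called in WT CDAHFD, 7 in KO CDAHFD against WT chow, 1 in KO CDAHFD against KO chow and 3 in the interaction. It leaves 1 KO chow library, replicate 1, which is assumed to vary as the other groups do. Apob was lower in that library (3511 CPM) than in KO chow replicate 2 (5566 CPM), and its change was -0.25 without replicate 1. Replicate 1 also had the lowest deviation of long minus short genes (-0.29). The fit therefore cannot show whether the Apob call holds apart from that library.

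Levels of the members across the 12 libraries were described by Pearson r of log2 CPM. Libraries of the 4 groups share group differences and scaling, so r describes the pattern only. Apoa2 ran with Apoe (r = 0.97) and with Apoa1 (0.95), and opposite to Apoa4 (-0.96). Mttp ran with Apoa5 (0.94), and Tm6sf2 had no r above 0.53 with another member. Of all genes, those most like Apoa4 were Slc7a11, which encodes a cystine transporter, Pgm2 and Vcam1, an adhesion molecule (r = 0.996, 0.995 and 0.992). Vcam1 was lowest in the WT chow libraries (7.84 to 14.7 CPM), highest in those of KO chow (83.8 and 91.0 CPM) and between on CDAHFD (54.8 to 68.2 CPM), the same order of groups as Apoa4. For Apob they included Arhgap35 and Abca1, the cholesterol exporter (0.971 and 0.970).

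Those most like Apobec1 were Skil, Steap4 and Saa3, an acute-phase gene (r = 0.974, 0.967 and 0.965). Saa3 stood at 34.1, 4.19, 6.90 and 5.64 CPM in WT chow, and Steap4 at 455, 100.9, 111 and 124 CPM. WT chow replicate 1 was the high library in each. Hpx, another acute-phase gene and named after its values were seen, was at 7658 CPM in that library and at 3772 to 4030.3 CPM in the other WT chow libraries. What sets that library apart was not tested. For the other members the most similar genes were Gm16573, Azgp1 and Sil1 (Apoa1), Hebp1, Ppdpf and Cyp2d10 (Apoa2), Ccny, Brap and Gpat4 (Apoa5), Atp5f1, Mdh1 and Ndufb11 (Apoc3), Asgr1, Prodh2 and Proc (Apoe), Tiam2, Lactb2 and Cdadc1 (Mttp) and Sdc1, Rundc3a and Rfk (Tm6sf2), with r from 0.908 to 0.994.

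**Figure D4:**
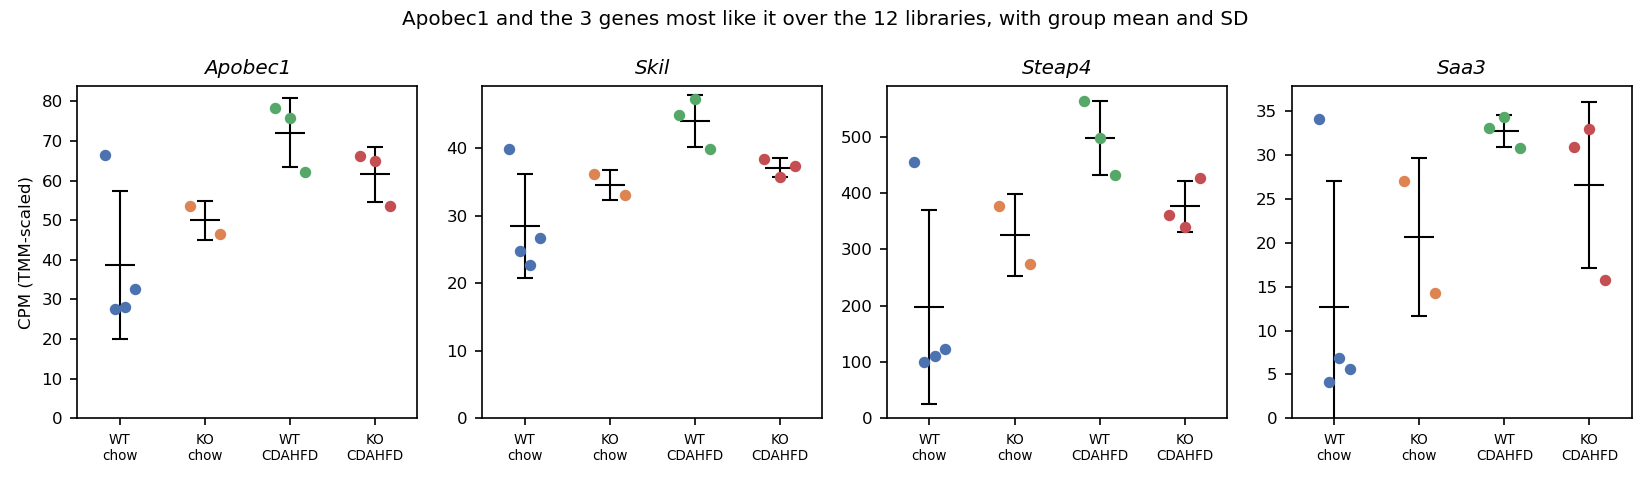
Level of Apobec1 and of the 3 genes most like it over the 12 libraries, in CPM on TMM-scaled library sizes from 0, with the mean and 1 SD of each group. One WT chow library stands at 66.4 CPM of Apobec1 and 34.1 CPM of Saa3, and the other 3 lie at or below 32.5 and 6.90 CPM.

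Other genes of the pathway were taken from lists, and KO chow and WT CDAHFD were each set against WT chow. Over all genes tested 22% were called higher and 17% lower in KO chow, and 26.1% and 25% in WT CDAHFD. Of 7 other apolipoprotein genes tested (Apod was not), KO chow had 5 called lower and WT CDAHFD 7, with medians of -0.66 and -1.02 and none called higher. Apoc1 libraries ranged from 2767 to 4097 CPM for WT chow, were 2143 and 2287 CPM for KO chow and ranged from 1119 to 1411 CPM for WT CDAHFD, and the gene fell by 0.66 ± 0.21 and 1.47 ± 0.18 on the log2 scale. Apoh fell by 0.76 ± 0.17 and 1.19 ± 0.15, and Apon by 0.56 ± 0.14 and 1.16 ± 0.12. In both comparisons their libraries did not overlap those of WT chow.

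Of 16 genes for lipidation and transport of VLDL through the secretory path, 8 fell and 1 rose in KO chow, and 8 fell in WT CDAHFD, with medians of -0.44 and -0.39. The number called in WT CDAHFD, in either direction, was near the 51.1% of all genes. Dgat2, which makes triglyceride, ranged from 602 to 964 CPM for WT chow, was 359 and 369 CPM for KO chow and ranged from 319 to 352 CPM for WT CDAHFD, and fell by 1.10 ± 0.16 and 1.22 ± 0.14. Aadac, a lipid hydrolase of the endoplasmic reticulum, fell in both (log2 changes -0.97 ± 0.16 and -1.5004 ± 0.14). Sort1, a sorting receptor that binds apolipoprotein B, fell by 1.16 ± 0.28 in KO chow and was not called in WT CDAHFD (0.34 ± 0.23).

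Of the 4 partners of Apob editing, A1cf, which carries Apobec1 to its target, was the only one called in either comparison. It stood at 161, 153, 227 and 226 CPM in WT chow and 50.5 and 125.9 CPM in KO chow, and fell by 1.12 ± 0.34 (adjusted p = 0.0187). In WT CDAHFD it stood at 107, 122 and 110.4 CPM and fell by 0.76 ± 0.29 (adjusted p = 0.0407), while Apobec1 rose. The list medians were -0.21 and -0.19.

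Of 10 regulators of apolipoprotein genes, KO chow had 6 called lower and WT CDAHFD 7, with medians of -0.97 and -0.77 and none called higher. The largest falls in KO chow were those of Nr0b2 (-2.63 ± 0.54), which encodes the corepressor SHP, and Mlxipl (-1.89 ± 0.17), which encodes the glucose-responsive factor ChREBP. In WT CDAHFD these fell by 1.94 ± 0.44 and 1.38 ± 0.15. Creb3l3, named after its values were seen because it is a known activator of Apoa4, fell by 0.996 ± 0.15 and 0.88 ± 0.13, while Apoa4 rose.

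Of 14 genes of lipoprotein remodelling and uptake, 3 rose and 5 fell in KO chow, and 2 rose and 9 fell in WT CDAHFD, with medians of -0.42 and -0.67. The number that rose in KO chow was near the 22% of all genes. Lpl, lipoprotein lipase, ranged from 14.6 to 38.9 CPM for WT chow, was 210.5 and 286 CPM for KO chow and ranged from 445.5 to 560.1 CPM for WT CDAHFD, and rose by 3.34 ± 0.29 and 4.41 ± 0.28. Macrophages also express Lpl and Apoe, and the part of the rise in the summed macrophage markers in these values was not tested. Vldlr, a receptor for VLDL, rose by 2.46 ± 0.40 in KO chow from 0.917 to 3.84 CPM in WT chow to 8.37 and 15.9 CPM, and was not called in WT CDAHFD (-0.22 ± 0.38). Angptl8, an inhibitor of lipoprotein lipase, fell by 2.27 ± 0.43 in WT CDAHFD and was not called in KO chow (-0.73 ± 0.46).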

How the data were processed

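Poly-A RNA of 12 mouse livers was sequenced as non-directional libraries. Per the labels and methods, the authors checked reads with FastQC 0.11.5, aligned them with STAR 2.7.3a to GRCm38 and used DESeq2. The deposited values are raw read counts per Ensembl gene, without normalization, and the counting program and annotation release are not given in the sources used here. Symbols and positions were taken from GENCODE M21, which holds 94.08% of the identifiers. Groups came from the sample labels, which give 4, 2, 3 and 3 mice where the methods state equal groups.

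Genes were filtered with filterByExpr (17358 kept), scaled with TMM and fitted with 1 mean per group over 12 libraries in edgeR 4.0.16 (R 4.3.3, quasi-likelihood), checked on simulated counts. For KO chow against WT chow that check recovered 50% of log2 changes of 1 and 96% of those of 2. Of its calls 7.01% were false, above the threshold of 0.05. For WT CDAHFD against WT chow it recovered 70% and 94%, with 3.53% of calls false. The check changed 100 genes by each size in each group except WT chow, as many up as down. In the data 39% and 51.1% of all genes were called in these comparisons, so the rates of the check need not carry over. Python 3.11.15 and matplotlib 3.10.9 drew the figures. Log2 CPM used a prior count of 2. The p-values set a difference between groups against the spread between libraries, with 1 estimate for a gene shared by the groups. That estimate is not the spread of the 2 KO chow libraries alone.

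The 10 members and all gene lists were chosen with earlier results of these data known. Named genes were the members, Ppara, up to 3 genes per pathway list with the largest change among those called without overlap in KO chow or WT CDAHFD against WT chow, and for each member the 3 genes of highest Pearson r. Some genes that this rule names are not reported here. Alternatives were DESeq2 1.42.0, RLE or total-count scaling, no filter, a replicate block, a clock covariate, only the groups compared, each library left out and, chosen after the data were seen, leaving out 4 libraries of the other clock phase. The 5 genes of the sex check were as in males in all 12 libraries.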

Additional observations from a re-analysis of the deposited data

Results flagged for a closer look

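Apobec1 in WT chow replicate 1, at 66.4 CPM, stood apart from the other 3 WT chow libraries, at 27.7 to 32.5 CPM, and the gap was 0.875 of the group's range, above Dixon's critical value for 4 samples. Chance gives such a value in about 1 of 20 groups, and 10 genes were looked at.

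The difference between WT and KO mice changed with diet, by the interaction test in edgeR, for 5 genes. On the log2 scale the change of the KO effect from chow to CDAHFD was -4.29 for Apoa4, 1.505 for Apoa2, 0.88 for Apoc3, 0.72 for Apoe and 0.58 for Mttp.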

How the results depend on the processing

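Leaving out each library gave 5 to 9 members called in KO chow against WT chow, 0 to 4 in KO CDAHFD against KO chow and 3 to 7 in the interaction, and 4361 to 7137, 239 to 1442 and 2861 to 4629 genes in all. In KO CDAHFD against WT CDAHFD it gave 26 to 76 genes. With total counts alone 4 members were called in KO chow, 1 in KO CDAHFD against KO chow and 3 in the interaction, and values turned for Apob (0.053) and Tm6sf2 (0.17) in WT CDAHFD, Apoe (0.0711) and Tm6sf2 (0.31) in KO CDAHFD against WT chow, Apob (0.0599) in KO CDAHFD against KO chow and Apoa5 (-0.10) in the interaction. That scaling also moved the median of all genes. Which scaling is closer to the levels in the livers was not tested. Genes called in KO CDAHFD against WT CDAHFD numbered 245 with DESeq2, 215 with no filter, 177 with the clock score as covariate, 153 with only the groups compared and 114 without the 4 libraries. In KO CDAHFD against KO chow they numbered 1904 with DESeq2, 577 with only the groups compared (1 member) and 610 without the 4 libraries (1 member). Without those 4 libraries, 4 members were called in KO chow and 3 in the interaction, with fewer samples.

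Pairing by replicate number was looked at through r of the libraries' deviations from their group means. Over 15 pairs of libraries with the same number, r ran from -0.242 to 0.266, and 3 were above 0.1. Over 38 pairs with different numbers it ran from -0.266 to 0.245, and 7 were above 0.1. The deviations of the 2 KO chow libraries mirror each other, so this cannot settle whether samples were paired. With the replicate number as a block, 4 members were called in KO chow, 2 in the interaction, and 640 genes in KO CDAHFD against KO chow.

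Small uncalled values turned in direction as follows. In KO CDAHFD against WT CDAHFD the fits that left out a library ran from -0.14 to 0.15 for Apoa1, -0.0668 to 0.277 for Apoa2, -0.0387 to 0.154 for Apoa4, -0.0482 to 0.378 for Apoc3 and -0.0114 to 0.2002 for Tm6sf2. Apoa1 was -0.0043 with the block, and Apoa4 was -0.0042 with the clock covariate and -0.0294 without the 4 libraries. In KO CDAHFD against KO chow the leave-out range was -0.0888 to 0.255 for Apoa2, -0.427 to 0.217 for Apob and -0.0408 to 0.159 for Apoe, and leaving out the 4 libraries gave 0.15 for Apob. The causes were not tested. Comparisons with KO chow rest on 2 libraries of that group.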
